A study of Mus musculus with 8 samples.

Results

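Small heat shock proteins are chaperones that hold unfolding proteins in a soluble state without using ATP, and hand them to the HSP70 machinery for refolding or to autophagy for removal. All share an α-crystallin domain and assemble with each other into larger complexes. Striated muscle makes more kinds of them than other tissues do, and there they bind to Z-discs, desmin filaments and the actin-filamin network, which are strained at every contraction. Mutations in several of them cause myopathy or neuropathy in humans.

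The 7 small heat shock protein genes of muscle described here, Hspb1, Hspb2, Hspb3, Hspb6, Hspb7, Hspb8 and Cryab, were taken by gene symbol from a table of 14012 genes, and all 7 were present in it. The table holds RNA sequencing counts of the quadriceps femoris (QF), a large thigh muscle, from 4 mice labelled Grpel1 smk -/- (knockouts) and 4 mice labelled Grpel1 flox/flox (controls), 1 library per mouse, each mouse with its own animal number. GRPEL1 is a nucleotide exchange factor of mitochondrial HSP70, which pulls imported proteins into the matrix and helps them fold. By the study's methods, the knockouts carry a tamoxifen-inducible Cre driven by the human skeletal muscle α-actin promoter, so that deletion is meant for muscle fibres and spares the other cells of the muscle, and tamoxifen was injected from the age of 5 weeks on 5 consecutive days. Both groups carry the floxed Grpel1 allele. The age at sampling and the strain are not given in the labels, which list no treatment. Whether the control mice of these libraries received tamoxifen or carried the Cre transgene is not stated. Whichever of these they lacked cannot be told apart from the deletion.

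The controls had 16017565 to 18813042 counts per library and the knockouts 16424608 to 20361144. Grpel1 itself did not check the labels at the level of the whole gene, with 68.4 ± 3.04 CPM in the controls and 65.3 ± 6.11 CPM in the knockouts (SD, n = 4 each), so each direction given here rests on the labels. The fibre transcripts that dominate QF were present in all libraries, and their markers (8 genes including Acta1, Ckm and Myh4) summed to between 178400 and 233600 CPM in controls and between 53710 and 74940 CPM in knockouts. Of these markers, 7 were called lower and 1, Des, higher in the knockouts (edgeR adjusted p under 0.01). Over all genes the shares were 21.1% lower and 23.6% higher. CPM, the count of a gene scaled to a common library size, was taken over library sizes adjusted by trimmed mean of M-values (TMM), a method meant for such changes in composition. In whole muscle, fewer cells of a type and less RNA per cell cannot be told apart.

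Among the 7 genes, 3 were higher in the knockouts, Hspb7, Hspb6 and Hspb1, at an adjusted p under 0.01 in the quasi-likelihood test of edgeR, Benjamini-Hochberg adjusted over all 14012 genes. The share of all genes called higher was 23.6%. No member was called lower by edgeR, against 21.1% of all genes, while 1 member, Hspb2, was lower at an unadjusted p under 0.05 and was called lower by DESeq2. The groups did not overlap for 3 of the 7 members and for 53.4% of all genes, so that the family as a list did not stand apart from the table by its counts. Its members did differ from each other, from a nearly 7-fold increase (a fold of 6.90 for Hspb7) to a value below 1 (a fold of 0.789 for Hspb2). The median log2 fold change was 0.329 over the members and 0.0652 over all genes.

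The promoters of the members show which letters they share and which they do not. Heat shock factor 1 (HSF1), the main transcription factor of the heat shock response, binds inverted repeats of the letters GAA. RefSeq promoters (GRCm38.p6) were found for 5 of the 7 members, and the bases before the transcript start at the deposited gene start were searched on both strands for the paired repeats GAANNTTC and TTCNNGAA. The 3 members that rose are shown, with Hspb3 beside them as a member that held a pair but did not pass the test, and capitals mark the pairs. Bases that GENCODE M21 annotates as untranslated were left out of the Hspb6 stretch.
Hspb7: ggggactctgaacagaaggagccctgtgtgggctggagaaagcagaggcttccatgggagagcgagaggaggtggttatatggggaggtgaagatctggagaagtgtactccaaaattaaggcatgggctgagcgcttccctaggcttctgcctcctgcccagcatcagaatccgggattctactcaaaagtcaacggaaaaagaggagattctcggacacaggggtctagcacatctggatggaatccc
Hspb6: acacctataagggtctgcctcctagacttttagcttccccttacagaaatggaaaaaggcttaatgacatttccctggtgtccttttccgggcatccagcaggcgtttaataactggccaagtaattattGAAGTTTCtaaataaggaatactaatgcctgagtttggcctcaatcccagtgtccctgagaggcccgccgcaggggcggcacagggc
Hspb1: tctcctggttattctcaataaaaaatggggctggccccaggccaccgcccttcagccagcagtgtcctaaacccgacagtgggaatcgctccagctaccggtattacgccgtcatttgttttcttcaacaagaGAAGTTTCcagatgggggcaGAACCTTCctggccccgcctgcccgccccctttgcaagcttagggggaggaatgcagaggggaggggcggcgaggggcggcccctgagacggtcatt
Hspb3: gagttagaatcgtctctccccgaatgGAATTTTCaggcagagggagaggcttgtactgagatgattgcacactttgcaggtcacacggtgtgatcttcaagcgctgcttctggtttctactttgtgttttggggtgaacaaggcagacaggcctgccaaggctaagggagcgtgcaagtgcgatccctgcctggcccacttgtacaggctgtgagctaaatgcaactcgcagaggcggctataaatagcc

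These stretches lie at chr4:141420529-141420778 (+) for Hspb7, chr7:30553051-30553267 (+) for Hspb6, chr5:135887669-135887918 (+) for Hspb1 and chr13:113663677-113663926 (-) for Hspb3. Hspb1 held 2 pairs, at 117 to 110 and 97 to 90 bases before its start. Hspb6 and Hspb3 held 1 pair each, at 120 to 113 and at 224 to 217 bases before the start. Another Hspb6 promoter, with its transcript start upstream at chr7:30552540, held no pair. Neither pair was found in the 250 bases before Hspb7 or Hspb8, and either form was present in 12.8% of all 32851 mouse promoters of that length, 6.69% with GAANNTTC and 7.17% with TTCNNGAA. A run of 3 units, GAA, TTC and GAA with 2 letters between each, which 0.466% of promoters held, was absent from all 5. TATAAA, present in 12.4% of promoters, lay at 29 to 24 bases before the start of Hspb6 and at 11 to 6 bases before that of Hspb3. The Hspb6 match lies in the bases left out of its printed stretch. The member with the largest increase thus held none of these letters in this window. A match describes the letters and was not tested for binding.

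Hspb7 (Entrez Gene 29818; chr4:141420779-141425310, + strand, GRCm38), made mainly in heart and skeletal muscle, binds filamin C and is needed for intact thin filaments. It stood at 85.6, 173, 99.9 and 230 CPM in control replicates 1 to 4 and at 940, 884, 1133 and 1108 CPM in knockout replicates 1 to 4. Every knockout lay well above every control, and the lowest knockout was higher than the highest control, while the controls themselves were spread over a 2.69-fold range. The mean rose from 147 ± 67.4 to 1016 ± 123 CPM (SD, n = 4 each), which is 2.79 on the log2 scale (SE 0.293, edgeR adjusted p = 2.51e-05, Benjamini-Hochberg). By mean CPM Hspb7 went from rank 936 to rank 74 of all genes, and its log2 fold change had rank 258.

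Hspb6 (Entrez Gene 243912; chr7:30553302-30555439, + strand), also called HSP20, is a target of protein kinase A that binds 14-3-3 proteins and is linked to relaxation of smooth and cardiac muscle. Its level was 807, 804, 593 and 752 CPM in control replicates 1 to 4 and 1635, 1128, 1868 and 1536 CPM in knockout replicates 1 to 4. Knockout replicate 2 was the lowest of its group but still exceeded all controls. The mean increased from 739 ± 101 to 1542 ± 309 CPM, a log2 fold change of 1.06 (SE 0.160, edgeR adjusted p = 0.000276 after Benjamini-Hochberg adjustment).

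Hspb1 (Entrez Gene 15507; chr5:135887919-135889563, + strand), the HSP27 or HSP25 of stressed cells in general, protects actin filaments and is phosphorylated by the p38-MAPKAPK2 pathway. Control replicates 1 to 4 had 177, 174, 203 and 120 CPM, and knockout replicates 1 to 4 had 219, 238, 274 and 263 CPM. The groups did not overlap, although control replicate 3 and knockout replicate 1 lay close together. The mean went from 169 ± 34.6 to 248 ± 24.5 CPM, with a log2 fold change of 0.56 (SE 0.145, edgeR adjusted p = 0.00763, Benjamini-Hochberg). This call sat near the threshold and was lost with another scaling and in 5 of the 8 fits with 1 library left out. Those were the fits without control replicate 1, without control replicate 2, and without any one of knockout replicates 2, 3 and 4, in which the edgeR adjusted p reached 0.0249. In the exact permutation test over the 70 assignments of 4 libraries against 4, two-sided, each of these 3 genes reached 0.0286, the smallest p the design allows.

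Cryab and Hspb8, which came after Hspb6 in RNA per length in the controls, did not pass the test. Hspb8 (Entrez Gene 80888; chr5:116408491-116422864, - strand) is the partner of BAG3 in the autophagy of damaged filamin. It stood at 663, 466, 562 and 404 CPM in control replicates 1 to 4 and at 628, 665, 668 and 669 CPM in knockout replicates 1 to 4. The knockouts were nearly equal to each other, 3 of them within 664.5 to 669.1 CPM, and control replicate 1 lay inside their range, so that the groups overlapped. The log2 fold change was 0.33 (SE 0.138, edgeR adjusted p = 0.0627, Benjamini-Hochberg), and without control replicate 1 it was 0.46 with an adjusted p of 0.00787, past the threshold. The coefficient of variation of Hspb8 was 21.6% in the controls and 2.99% in the knockouts.

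Cryab (Entrez Gene 12955; chr9:50751325-50756636, + strand), αB-crystallin, is the founding desmin chaperone of muscle, and its mutation causes a desmin-related myopathy. Its level was 776, 699, 635 and 391 CPM in control replicates 1 to 4 and 670, 687, 844 and 741 CPM in knockout replicates 1 to 4. The groups overlapped broadly, with control replicate 4 alone below the knockouts by a wide margin, and the log2 fold change was 0.24 (SE 0.185, edgeR adjusted p = 0.296, Benjamini-Hochberg). Without control replicate 4 the value came down to 0.07.

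Hspb2 and Hspb3, which pair with each other in a complex that is formed during muscle differentiation, were the least abundant members. Hspb2 (Entrez Gene 69253; chr9:50751072-50752354, - strand), named for binding the myotonic dystrophy protein kinase, had 45.4, 40.5, 46.7 and 37.9 CPM in control replicates 1 to 4 and 29.02, 33.2, 39.3 and 33.03 CPM in knockout replicates 1 to 4. Only knockout replicate 3 reached into the range of the controls, above control replicate 4. The log2 fold change of -0.34 (SE 0.103) missed the threshold with an edgeR adjusted p of 0.0163 (Benjamini-Hochberg), and passed it at 0.00236 without knockout replicate 3. Hspb3 (Entrez Gene 56534; chr13:113662896-113663676, - strand), a gene of 1 exon linked to motor neuropathy, had 19.6, 18.98, 22.97 and 14.6 CPM in control replicates 1 to 4 and 16.5, 16.1, 17.5 and 18.4 CPM in knockout replicates 1 to 4. All knockouts lay within the range of the controls, and the log2 fold change was -0.15 (SE 0.126, edgeR adjusted p = 0.323, Benjamini-Hochberg).

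**Figure D1:**
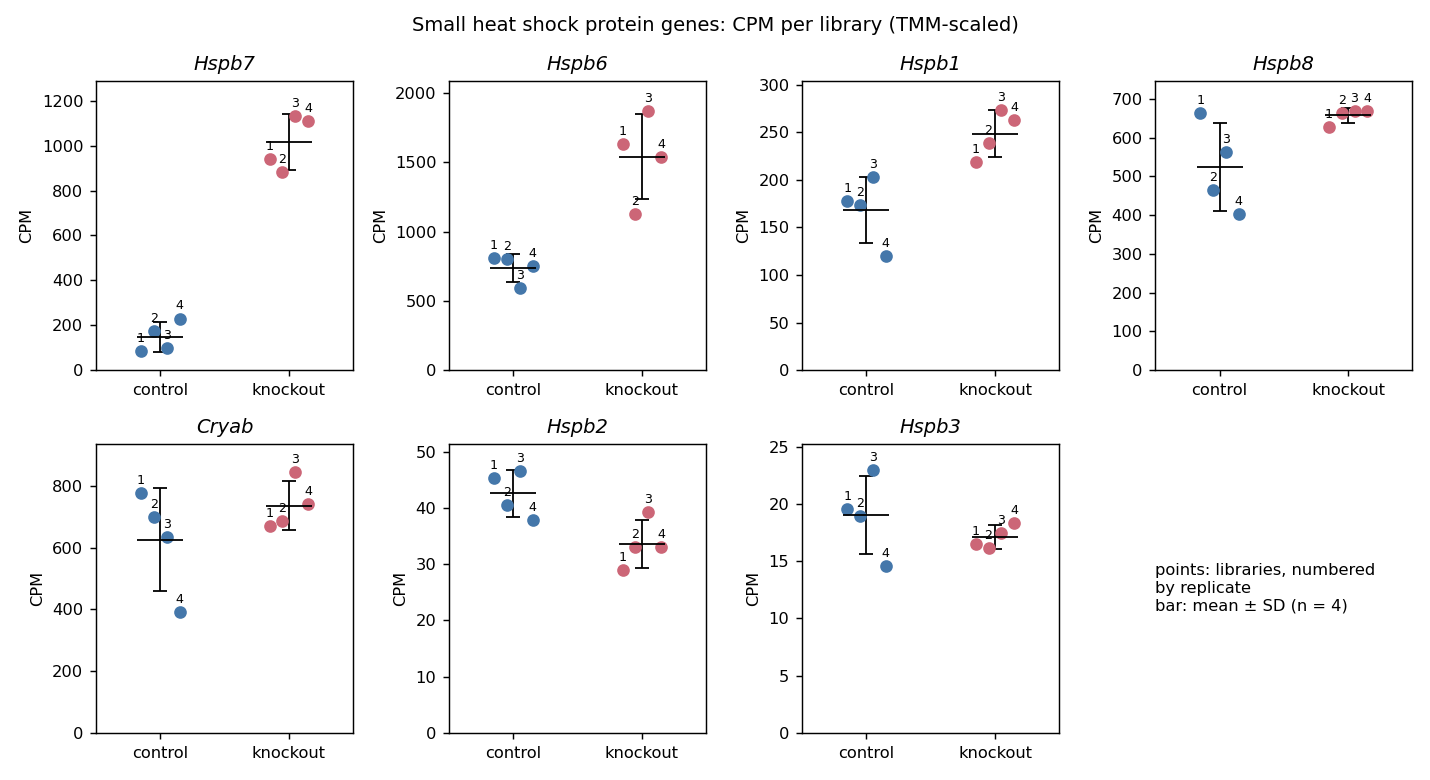
CPM of each small heat shock protein gene in every library, on linear axes from 0, with points numbered by replicate and bars at the mean ± SD (n = 4). The knockouts lie above all controls for Hspb7, Hspb6 and Hspb1, and the groups overlap for the other 4 genes.

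Levels of different genes were compared per kilobase of exon. In the controls the order was Hspb6 (558 ± 75.8 CPM per kb), Cryab (509 ± 136), Hspb8 (288 ± 62.4), Hspb1 (187 ± 38.3), Hspb7 (53.2 ± 24.3), Hspb2 (50.7 ± 4.91) and Hspb3 (24.4 ± 4.39). Of the neighbours in this order, only Hspb1 and Hspb7, and Hspb2 and Hspb3, had ranges that did not overlap, and Hspb6 and Cryab led in 2 control libraries each. In the knockouts Hspb6 led in all 4 libraries at 1164 ± 233 CPM per kb, followed by Cryab at 600 ± 63.9, Hspb7 at 367 ± 44.5 and Hspb8 at 362 ± 10.8. Below them stood Hspb1 at 275 ± 27.2, Hspb2 at 40.0 ± 5.03 and Hspb3 at 21.9 ± 1.30 CPM per kb. Only Hspb7 and Hspb8 had overlapping ranges there, so Hspb7 moved from the level of Hspb2 to that of Hspb8.

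The level summed over the 7 genes was 1912, 1761, 1620 and 1388 CPM per kb in control replicates 1 to 4 and 2764, 2421, 3248 and 2885 in knockout replicates 1 to 4, with no overlap. The mean was 1.69 times higher in the knockouts (2829 ± 341 against 1670 ± 223). Hspb7 made up 3.35% of that sum in the controls and 12.99% in the knockouts, with no overlap, while Hspb6 made up 33.7% and 40.9%. The share of Cryab was 30.1% in the controls and 21.3% in the knockouts, and that of Hspb8 was 17.2% and 12.9%, and the groups overlapped for the shares of Hspb6, Cryab, Hspb8 and Hspb1. Where counts were not divided by exon length, the knockout share less the control share was 17.2 percentage points for Hspb7 in place of 9.64, 3.23 for Hspb6 in place of 7.15 and -7.39 for Hspb8 in place of -4.26. These sums and shares combine members that were already described and are given without a test.

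**Figure D2:**
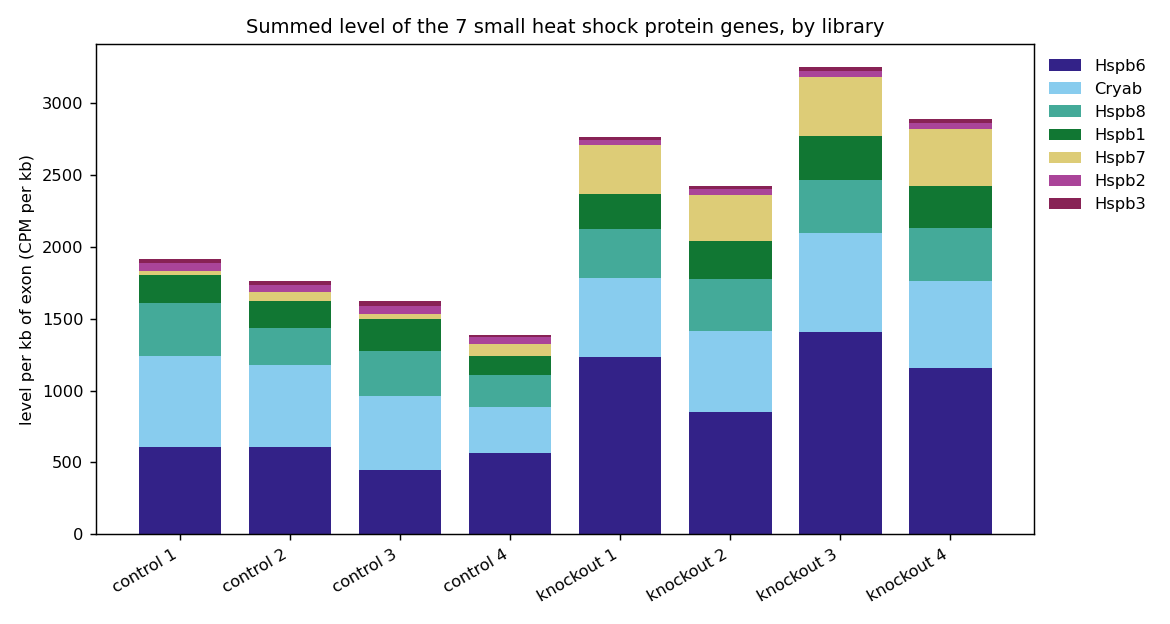
Summed level of the 7 genes in each library, in CPM per kb of exon, stacked by gene. The knockout bars (2421 to 3248) are all taller than the control bars (1388 to 1912), and the Hspb7 segment is a mean of 3.35% of the control bars and 12.99% of the knockout bars.

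The ratio of 2 members within a library does not depend on how libraries are scaled. All 21 pairs were compared by exact permutation tests over the 70 assignments, two-sided, and in 15 pairs the groups did not overlap, each with p = 0.0286, or 0.04 after Benjamini-Hochberg adjustment over the 21 pairs. The counts of Hspb7 per count of Cryab were 0.110, 0.248, 0.157 and 0.590 in control replicates 1 to 4 and 1.40, 1.29, 1.34 and 1.496 in knockout replicates 1 to 4, a difference of 2.62 in the log2 ratio (SE 0.524). Cryab thus gave more reads than Hspb7 in every control and fewer in every knockout. Hspb7 has 2768 exon bases and Cryab 1227, and per kb of exon Cryab stayed above Hspb7 in all 4 knockouts. Hspb7 also rose against Hspb6, the member with the next largest increase, since Hspb6 counts per Hspb7 count were between 3.26 and 9.43 in the controls and between 1.28 and 1.74 in the knockouts.

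The pairs whose groups overlapped were Hspb1 with Hspb6, Hspb1 with Hspb8, Hspb2 with Hspb3, Hspb6 with Hspb8, Hspb6 with Cryab, and Hspb8 with Cryab. The ratios of Hspb2 and of Hspb3 to each of the other members did not overlap between the groups, while their ratio to each other did. The ratios among Hspb6, Hspb8 and Cryab overlapped between the groups, although Hspb6 alone of them passed the test on its own level.

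**Figure D3:**
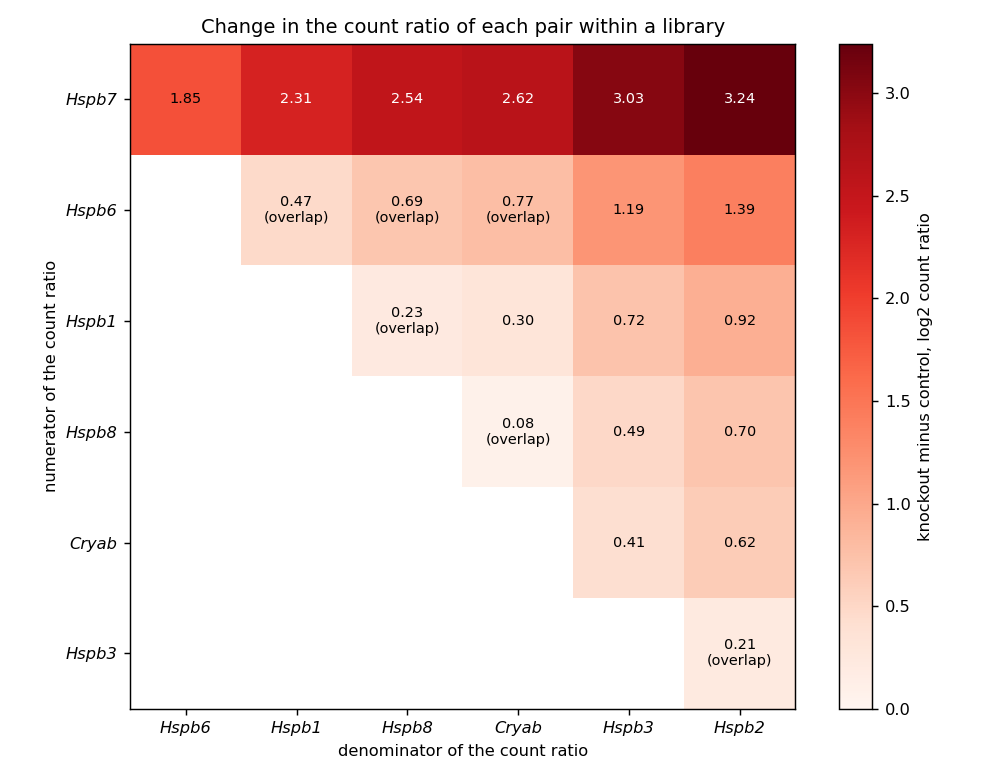
Change in the log2 count ratio of each pair, knockout minus control, with the numerator in rows and the denominator in columns; pairs whose groups overlapped are marked. The top row, Hspb7 over each other member, ranges from 1.85 against Hspb6 to 3.24 against Hspb2.

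Hspb2 and Cryab lie head to head on chromosome 9, on opposite strands, and share a control region in mammals. Hspb2 counts per Cryab count were 0.0586, 0.0580, 0.0735 and 0.0970 in control replicates 1 to 4 and 0.0433, 0.0483, 0.0465 and 0.0446 in knockout replicates 1 to 4. All knockouts lay below all controls, and the log2 ratio differed by -0.62 (SE 0.178, exact permutation p = 0.0286, or 0.04 adjusted over the 21 pairs). Control replicate 4, the library with the least Cryab, had the highest ratio. The deposited spans of both genes overlap by 1030 bases, and in GENCODE M21 252 exon bases, 30.2% of those of Hspb2, are also in exons of 1 of the 6 Cryab transcripts. Whether strand was used in the counting is not stated, so reads from the shared stretch cannot be told apart.

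The scale of the libraries set the sign of the weakest members. Dividing by library totals alone moved the median over all genes from 0.0652 to 0.733 on the log2 scale, and under it Hspb2 and Hspb3 changed sign, to 0.33 and 0.52. Relative to that median, Hspb2 stood at -0.40 and Hspb3 at -0.21, and Hspb7 at 2.69, Hspb6 at 0.98, Hspb1 at 0.51, Hspb8 at 0.28 and Cryab at 0.18.

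**Figure D4:**
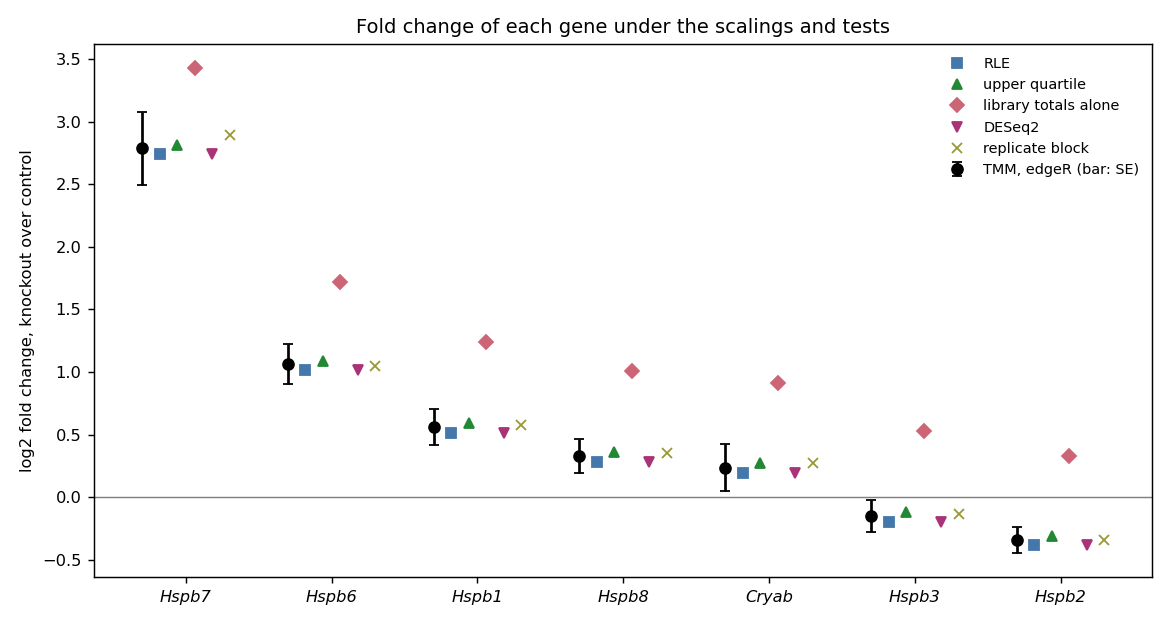
Log2 fold change of each gene, knockout over control, in the reported fit (black, bars are SE) and under other scalings and tests. Library totals alone (diamonds) lift every gene, and Hspb2 and Hspb3 from below to above 0.

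The other genes of the pathway were counted in lists of partners, clients and regulators. Over all genes, edgeR called 23.6% higher and 21.1% lower, and the counts of each list stand beside these shares. BAG3 ties HSPB8 and HSP70 together in the disposal of damaged Z-disc proteins. Of 8 genes of this route 2 rose, 2 fell and 4 did not pass, near the shares over all genes, with a median log2 fold change of -0.154. Bag3 itself stood at 185 ± 21.3 CPM in the controls and 160 ± 8.0 CPM in the knockouts (log2 fold change -0.21, edgeR adjusted p = 0.0668, Benjamini-Hochberg), and the ubiquitin ligase gene Stub1 at 46.7 ± 3.62 and 43.6 ± 2.27 CPM (adjusted p = 0.275). The autophagy receptor gene Sqstm1 rose from 665 ± 47.4 to 1357 ± 148 CPM and Map1lc3a, which makes an LC3 protein of the autophagosome, from 195 ± 23.9 to 378 ± 26.9 CPM. Map1lc3b, for another LC3 protein, went the other way, from 147.6 ± 10.1 to 125.8 ± 11.9 CPM. Its groups did not overlap, but it did not pass (edgeR adjusted p = 0.0384, Benjamini-Hochberg). Hspa8, the constitutive HSP70, fell from 1346 ± 279 to 870 ± 51.3 CPM, and Synpo2, a Z-disc partner of BAG3, from 560 ± 7.71 to 231 ± 33.6 CPM. Hspb8 and Bag3, whose proteins form a complex, both missed the threshold, with log2 fold changes of opposite sign.

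Of 12 Z-disc and intermediate filament genes whose proteins small heat shock proteins bind or stand beside, 4 rose, 6 fell and 2 did not pass (median -0.447). Flnc, which makes the filamin C bound by HSPB7, had 853, 1234, 990 and 1187 CPM in control replicates 1 to 4 and 3053, 2539, 3622 and 3348 CPM in knockout replicates 1 to 4, a log2 fold change of 1.56 (SE 0.152). The Z-disc stress sensor gene Csrp3 rose by 2.22 on the log2 scale, Actn2 (α-actinin-2) by 1.10 and the desmin gene Des by 0.82. Actn3, the α-actinin of fast fibres, and the synemin gene Synm fell, with log2 fold changes of -2.33 and -2.16. The client genes thus moved in both directions, with Flnc and Des among those that rose.

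Hsf1 did not pass, at 59.8 ± 4.81 CPM in controls and 60.5 ± 4.47 CPM in knockouts (log2 fold change 0.02, edgeR adjusted p = 0.859, Benjamini-Hochberg), while Hsf2 rose by 0.93 and Hsf4 by 0.57, so that 2 of the 4 regulator genes were called. Among 21 genes of the heat shock factor 1 response outside the family, 11 fell, 2 rose and 8 did not pass, with a median of -0.451; Bag3 and Hspa8 stand in this list too. The inducible HSP70 gene Hspa1a had 36.5, 35.9, 39.1 and 15.5 CPM in control replicates 1 to 4 and 2.09, 4.21, 2.11 and 3.98 CPM in knockout replicates 1 to 4, a log2 fold change of -3.36 (SE 0.337). Its near-identical copy Hspa1b fell by 2.62, and since reads that map to both copies were left out, the split between them is uncertain. Hsph1, an HSP110, fell by 1.10, whereas the mitochondrial co-chaperonin gene Hspe1 rose by 0.70 and the HSP110 relative Hspa4 by 0.41. Hspb7, Hspb6 and Hspb1 increased in the same libraries in which Hspa1a, Hspa1b and Hspa8 decreased.

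Phosphorylation controls the assembly of HSPB1, HSPB6 and CRYAB. Of the 12 genes in the table from a list of kinases linked to small heat shock proteins, 9 fell and 1 rose (median -0.519). The list is wider than the kinases of these proteins, and holds p38 genes and the gene of the myotonic dystrophy protein kinase, which binds HSPB2. Mapk14, which encodes p38α, fell from 213 ± 12 to 63.6 ± 8.25 CPM, Mapkapk2 from 350 ± 13 to 168 ± 9.40 CPM, and Prkcd by 1.18 on the log2 scale. Prkaca, for a catalytic subunit of the protein kinase A that acts on HSPB6, was the only one that rose, by 0.39. Prkacb, for another catalytic subunit of that kinase, fell, with a log2 fold change of -0.466, so the subunit genes went opposite ways. Of the 7 genes for 14-3-3 proteins, which bind phosphorylated HSPB6, Ywhaz and Sfn rose by 0.91 and 1.17, Ywhae fell by 0.42 and the other 4 did not pass. Hspb11, the only other gene named as a small heat shock protein that was in the table, stood at 2.99 ± 0.466 and 4.05 ± 0.707 CPM and did not pass (edgeR adjusted p = 0.0527, Benjamini-Hochberg), and its product is now known as a cilium transport protein. Under library totals alone the medians of the BAG3, Z-disc, heat shock factor 1 target and kinase lists turned positive (0.518, 0.219, 0.22 and 0.148), below the median of all genes on that scale, 0.733.

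**Figure D5:**
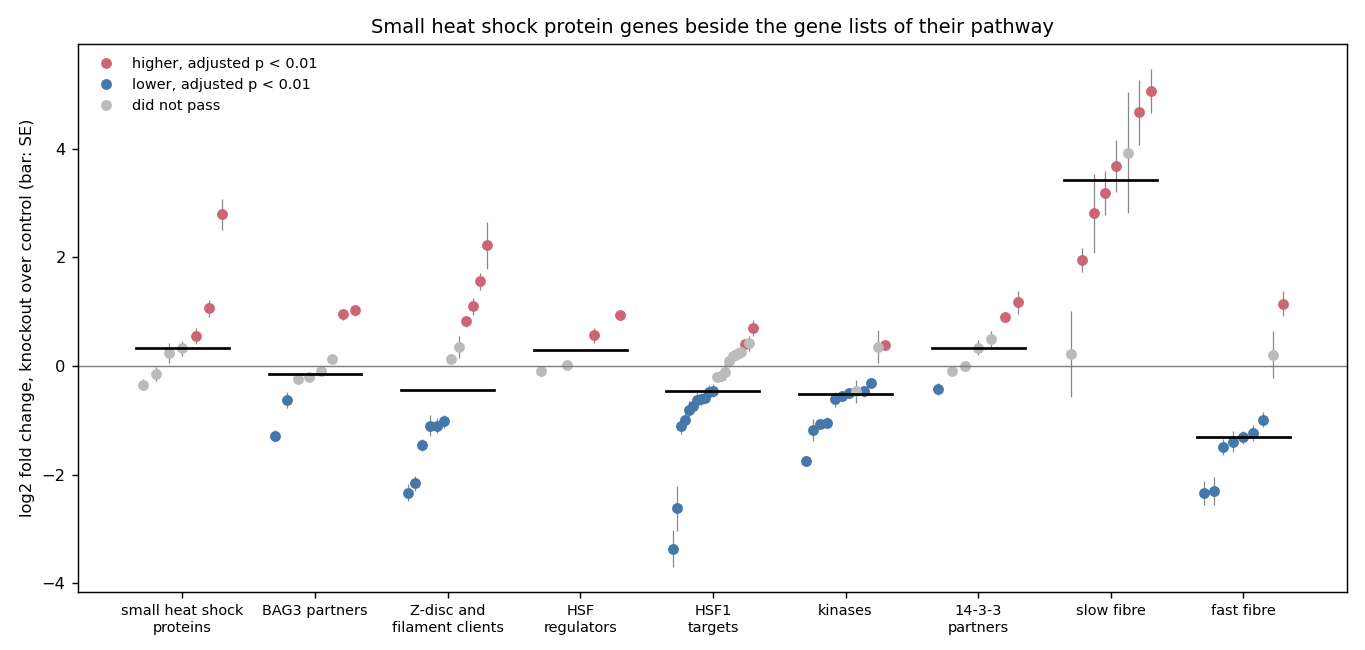
Log2 fold change, knockout over control, of every gene of the family and of the 8 other lists, with SE bars, a black line at each list's median, and colours for the call at an adjusted p under 0.01. The heat shock factor 1 targets (median -0.451) and kinases (-0.519) lie mostly below 0, where no small heat shock protein gene was called.

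Fibre type genes also differed between the groups, where edgeR called 23.6% of all genes higher and 21.1% lower. Of 8 slow fibre genes 6 rose, led by Tnni1 and Tnnc1 with log2 fold changes of 5.06 and 4.67, and their summed level ranged over 109 to 210 CPM in controls and over 541 to 1859 CPM in knockouts. Of 9 fast fibre genes 7 fell and Myh1 rose, and they summed to 200800 to 269000 CPM and 72290 to 104400 CPM. CRYAB, HSPB6 and HSPB1 are known to be more abundant in slow than in fast muscle, and the part of fibre type in the values of Hspb7, Hspb6 and Hspb1 was not tested. The summed slow fibre level was 109, 141, 210 and 200 CPM in control replicates 1 to 4, where Hspb7 stood at 85.6, 173, 99.9 and 230 CPM. In knockout replicates 1 to 4 it was 788, 541, 1130 and 1859 CPM, where Hspb7 stood at 940, 884, 1133 and 1108 CPM. Replicate 1 was the lowest control for both, and replicates 2 and then 1 were the lowest knockouts for both, while the other replicates were ordered differently.

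Other cells of the muscle also make small heat shock proteins, HSPB1 and CRYAB among them. Their markers are counted beside shares over all genes of 23.6% higher and 21.1% lower by edgeR. Of 6 smooth muscle markers 5 fell (sums of 246 to 356 CPM in controls, 186 to 248 CPM in knockouts), and of 7 endothelial markers 6 fell (294 to 438 and 213 to 242 CPM). Of 5 fibroblast markers 3 fell (1292 to 1819 and 529 to 774 CPM), and of 6 macrophage markers 1 rose by edgeR and 4 by DESeq2 (60.3 to 150 and 124 to 226 CPM; 4 were higher at an unadjusted p under 0.05 in edgeR). Of 3 satellite cell markers 2 rose (26.9 to 30.9 and 38.3 to 53.8 CPM). No adipocyte, Schwann cell or erythroid marker was called by edgeR or DESeq2, with 1 Schwann cell marker higher at an unadjusted p under 0.05. Their sums were 29.3 to 852 and 346 to 1482 CPM for adipocytes, 40.5 to 134 and 65.8 to 108 CPM for Schwann cells, and 41.1 to 102 and 8.61 to 96.7 CPM for erythroid cells. No marker was at 0 in any library. Their part in the levels of the small heat shock protein genes was not tested.

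The genome neighbours of the members were taken by position, within 25 kb. Near Hspb7, at 19362 bases, Zbtb17 fell by 0.36 on the log2 scale. Near Hspb6, at 18241 bases, Arhgap33 stood at 1.21, 1.11, 0.787 and 0.882 CPM in control replicates 1 to 4 and at 56.6, 36.0, 64.6 and 54.5 CPM in knockout replicates 1 to 4, a log2 fold change of 5.73 (SE 0.229). Lin37, whose deposited span ends 1 base from Hspb6, rose by 0.77 and Kmt2b by 0.41, while Igflr1, Proser3, Psenen and U2af1l4 did not pass. Near Hspb2 and Cryab, Alg9 rose by 0.44 and 1110032A03Rik, 2310030G06Rik, Dixdc1 and Fdxacb1 did not pass. Ywhag beside Hspb1 and Srrm4 and Srrm4os beside Hspb8 did not pass either, and no other gene of the table lay within 25 kb of Hspb3.

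For each member the 3 genes with the most similar profile over the 8 libraries were taken by the root mean square difference of log2 CPM, each profile centred on its own mean, among 11048 genes with a mean of at least 50 counts. For Hspb7 these were Esrrg, which encodes the nuclear receptor ERRγ, at 0.213, Rin1 at 0.264 and Arhgef2 at 0.302, beside a standard deviation of the Hspb7 profile of 1.51. Esrrg stood at 8.56, 20.8, 15.7 and 23.5 CPM in control replicates 1 to 4 and at 112, 103, 114 and 109 CPM in knockout replicates 1 to 4. As with Hspb7, control replicates 1 and 3 were the lower and 2 and 4 the higher of the controls. Esrrg was picked for such likeness, so this match is no separate result. For Hspb6 the nearest were Mcm8, 9130023H24Rik and Trp53inp1 at 0.102 to 0.115, and for Hspb1 they included Aprt at 0.0953 and Abca5 at 0.114. Hspb8 was nearest to Tsen54, Rnmtl1 and Tmem161b, Cryab to Jrk, Rnf122 and Sp4, Hspb2 to Exoc4, Mark4 and Gon4l, and Hspb3 to Josd2, Tor1b and Rnf31. No member was among the nearest genes of another.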

How the data were processed

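QF RNA of 4 knockout and 4 control mice was analysed. Per the labels and the study's methods, the authors captured polyadenylated RNA, made directional libraries, trimmed reads with cutadapt, mapped them to GRCm38 with STAR 2.5.4b and counted exonic read pairs with Rsubread. Duplicate, chimeric, multimapping and poorly mapped pairs were dropped, as were genes under 50 reads. The deposited raw counts were used for all tests. The deposited FPKM values, made by the authors from those counts and exon width, entered alternatives only. The authors' own DESeq2 columns (fold changes, p-values, means) were not used. The annotation release is not given in the sources used here.

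All 14012 genes were fitted with edgeR 4.0.16 in R 4.3.3 (quasi-likelihood, TMM, label as the only term, Benjamini-Hochberg adjustment, threshold 0.01). An adjusted p without a tool named beside it is from this fit. The SE is the log2 fold change over the root of F. Values are mean ± SD. Count ratios had 0.5 added to each count. The procedure was tested on simulated data in which a small set of genes was changed, equally up and down. Those data lacked the change in composition of these libraries, so the scaling under such a change was not tested. Replicates with the same number were checked for pairing. Genes named were drawn from the 7 members, Bag3, Hspa8, Stub1, Flnc, Sqstm1, Hsf1, Hspa1a and Hspa1b, the 2 highest and 2 lowest called genes of each other list, every gene within 25 kb of a member, and the 3 most similar profiles of each member. Actn2, Des, Mapkapk2, Prkacb, Map1lc3b, Hsph1 and Mb were chosen after their values were seen. A few genes that the rule would name are not reported here. Members and lists were chosen with earlier results of these data known. Permutation tests planned for the summed level and the shares were not made, since both are scores over the members. Alternatives were the scaling, abundant genes, a count filter, DESeq2 1.42.0, limma 3.58.1 on FPKM, the threshold, the replicate block and each library left out.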

Additional observations from a re-analysis of the deposited data

Results flagged for a closer look

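Among 58 groups of 4 libraries looked at for a value far from the others, 1 was past Dixon's 95% limit, and chance flags about 1 in 20. It was Hspb8 in the knockouts, where replicate 1 (628 CPM) lay below the other three (664.5 to 669.1 CPM), with a gap of 0.89 of the range of log2 CPM. The range itself was narrow, at a highest value of 1.07 times the lowest.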

How the results depend on the processing

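Hspb7 and Hspb6 were called higher under every alternative run, between 2.598 and 3.09 and between 0.92 and 1.17 with 1 library left out. Hspb1 was no longer called with RLE size factors (0.52, adjusted p = 0.0129) or with limma on log2(FPKM + 1) (0.53, adjusted p = 0.0153), and ranged from 0.43 to 0.66 with 1 library left out. With library totals alone all 7 members were called higher, Hspb2 and Hspb3 turned to 0.33 and 0.52, Hspb8 was at 1.01, Cryab at 0.91, and the log2 ratio of the summed level at 1.43. The medians of the BAG3, Z-disc, HSF1 target, kinase, fibroblast and erythroid lists turned to 0.518, 0.219, 0.22, 0.148, 0.151 and 0.337. The shift of all genes on that scale, to a median of 0.733, is that alternative's own construction. Hspb2 was called lower by DESeq2 (-0.38, adjusted p = 0.00554) and at an adjusted p under 0.05 (-0.34), so that 1 member was then lower; the cause of the first was not tested. With 1 library left out, 2 to 3 members were called higher and 0 to 1 lower, and the ranges were -0.46 to -0.28 for Hspb2, -0.26 to -0.05 for Hspb3, 0.22 to 0.46 for Hspb8, 0.07 to 0.36 for Cryab and 0.68 to 0.83 for the log2 ratio of the summed level.

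The log2 ratio of Cryab over Hspb2 (0.62) was 0.47 to 0.71 with 1 library left out, each at p = 0.0571, the smallest that an exact permutation test of 3 against 4 can give. Taken as 4 pairs in a replicate block it was 0.62 with an exact permutation p of 0.125, again the smallest possible. Same-numbered libraries deviated together only in part (correlations of 0.213, 0.0351, 0.512 and 0.163 across genes). Control replicates 2 and 4 were closer to knockout replicate 1 (0.164 and 0.175) than to their own numbers. Knockout replicates 1, 3 and 4 were each closest to the control of their own number. The labels name no pairs, so whether same-numbered mice belong together is not settled. The replicate block gave 3215 higher and 2908 lower calls against 3303 and 2962, and Hspb7 at 2.89, Hspb6 at 1.05 and Hspb1 at 0.58, with no member's call changed.

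With 4 mice a group, differences such as those of Hspb8 and Cryab were not separated from the spread between mice. RNA levels say nothing of protein or of phosphorylation. Whether the controls received tamoxifen or carried Cre is not stated, and slow fibre genes and markers of other cells moved with the groups.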

Other observations

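Control replicates 1 to 4 did not hold the same level of Hspb7 (85.6, 173, 99.9 and 230 CPM), and when profiles were centred within each group, the gene most like Hspb7 among 11048 was Mb, which encodes myoglobin, the oxygen store of oxidative fibres, at a root mean square difference of 0.117 beside a standard deviation of the Hspb7 profile of 0.424. Mb was chosen after its values were seen. It stood at 764, 1383, 954 and 1683 CPM in control replicates 1 to 4, and at 137, 115, 144.2 and 143.9 CPM in knockout replicates 1 to 4. Within each group the libraries ran in the same order as for Hspb7, with knockout replicates 3 and 4 nearly tied for Mb. Since Mb was the closest gene by this same measure, a like order follows from how it was picked and is no separate result. Between the groups the 2 genes went opposite ways, with a log2 fold change of -3.15 (SE 0.235) for Mb and 2.79 (SE 0.293) for Hspb7. None of the 3 genes nearest to Hspb7 over all 8 libraries was among the 3 nearest within the groups, and 1, 1 and 0 were shared for Hspb2, Hspb6 and Hspb1.

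Csrp3, the stress sensor gene of the Z-disc, stood at 7.51, 47.9, 18.5 and 37.6 CPM in control replicates 1 to 4. As for Hspb7, control replicates 1 and 3 were low and 2 and 4 high. In knockout replicates 1 to 4 Csrp3 stood at 99.5, 150, 124 and 151 CPM. That was not the order of Hspb7, which was lowest in knockout replicate 2 (884 CPM) and highest in 3 (1133 CPM). The order in each group rests on 4 mice and was not tested.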
